A study of Mus musculus with 28 samples.

Results

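Germ cell-free testes taken 49 days after a retinoic acid injection had more genes called against the other days than those of any other day had. The comparisons for the other days had the day 49 libraries among their controls. The 2 libraries of that day deviated in different ways. In its mean distance to the other libraries, replicate 2 lay within the range of the other days. Replicate 2 held a compact set of 44 genes above the other days. Of these, 9 are MHC class I chains or their partner and 5 are on a peptide loading list, the regulator Nlrc5 among them. Another 3 belong to MHC class II, 22 to a list of interferon-stimulated genes and 5 to no list. Replicate 1 differed in 2062 genes, with high collagen and low mitochondrially encoded transcripts, and shared 6 of the 44 genes. The 2 day 49 libraries were chosen by their label, out of 28 libraries in the series, because earlier results of these data had shown the day to deviate. They were set against the 16 libraries of days 42 to 48 and 50. Differences between day 49 and the other days are therefore a description of these libraries, and calls made by a model are given as counts without support from p-values.

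All 18 libraries were whole testes of NANOS2 KO mice on a CD1 background, in which loss of NANOS2, an RNA-binding protein that male germ cells need, leaves tubules without germ cells. All mice, the comparison days included, had received WIN 18,446, which blocks retinoic acid synthesis, for 7 days and then an injection of retinoic acid (RA), and tissue was taken 42 to 50 days post-injection (dpi), 2 libraries a day. The labels give no age and do not say that replicates are separate animals, so the spread measured is that between these samples, which may be technical. The labels call the cell type Sertoli, while the protocol speaks of whole testis. The libraries held Leydig cell, macrophage and collagen transcripts beside those of Sertoli cells. Nanos2 had 0 counts in each of the 18 libraries, as did 2 others of the 17 germ cell genes listed, Piwil1 and Spata16. The 17 summed to 98.5 CPM in day 49 replicate 1, 122 CPM in replicate 2 and 106 to 204 CPM in the others, of which Kit and Zbtb16, which somatic testis cells can also express, had the most counts. Another 10 libraries of the series, sorted RFPxAMH-Cre Sertoli cells from synchronised testes on a C57BL/6 x Amh-Cre background, in which Amh-Cre switches on the red reporter, serve only to show where the genes are found. Levels are in CPM, the count of a gene scaled to a fixed library size, and a fold change is on the log2 scale from an edgeR quasi-likelihood fit.

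Nearly all cells display peptides on major histocompatibility complex (MHC) class I molecules, which pair a heavy chain with beta-2-microglobulin. Peptides are cut by the proteasome, in which inducible subunits can replace the standard ones, carried into the endoplasmic reticulum by the TAP transporter, and loaded with the help of tapasin and chaperones. Interferons, acting through JAK kinases, STAT proteins and interferon regulatory factors (IRFs), raise these genes together with guanylate-binding proteins and immunity-related GTPases, and interferon gamma also raises MHC class II, which is otherwise largely a feature of macrophages, dendritic cells and B cells. The testis is known as an immune-privileged organ with resident macrophages between its tubules.

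The start regions of genes high in replicate 2 are shown first, since they bear a feature that the choice of day 49 did not use. Each is the stretch of 250 bases before the RefSeq transcript start (GRCm38.p6), 5′ to 3′ on the gene's own strand. Capitals mark letters that match AANNGAAA, the core of the element that IRFs and the interferon-activated STAT complex bind, or TTCNNNGAA, the element that STAT dimers bind, on either strand. The regions are chr17:34000348-34000597 on the minus strand (H2-K1), chr17:35379367-35379616 on the plus strand (H2-Q4), chr2:122147437-122147686 on the plus strand (B2m), chr11:53769764-53770013 on the plus strand (Irf1) and chr3:142620413-142620662 on the plus strand (Gbp2). H2-K1 and H2-Q4 are MHC class I heavy chains, B2m their partner, Irf1 a regulator and Gbp2 a guanylate-binding protein.
H2-K1: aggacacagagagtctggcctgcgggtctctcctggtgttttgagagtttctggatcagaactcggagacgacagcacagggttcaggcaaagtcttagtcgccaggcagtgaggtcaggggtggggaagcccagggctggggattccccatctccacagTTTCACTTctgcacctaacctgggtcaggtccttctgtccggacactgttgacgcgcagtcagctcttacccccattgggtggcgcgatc
H2-Q4: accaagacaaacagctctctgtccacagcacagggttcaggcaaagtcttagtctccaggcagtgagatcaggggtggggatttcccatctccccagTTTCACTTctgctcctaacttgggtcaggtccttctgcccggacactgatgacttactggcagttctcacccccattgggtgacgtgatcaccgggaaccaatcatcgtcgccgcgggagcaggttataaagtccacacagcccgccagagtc
B2m: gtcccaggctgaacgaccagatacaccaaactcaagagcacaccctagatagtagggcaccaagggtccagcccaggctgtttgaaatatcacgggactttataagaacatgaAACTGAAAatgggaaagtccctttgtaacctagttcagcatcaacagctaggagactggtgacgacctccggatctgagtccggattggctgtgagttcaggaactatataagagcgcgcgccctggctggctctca
Irf1: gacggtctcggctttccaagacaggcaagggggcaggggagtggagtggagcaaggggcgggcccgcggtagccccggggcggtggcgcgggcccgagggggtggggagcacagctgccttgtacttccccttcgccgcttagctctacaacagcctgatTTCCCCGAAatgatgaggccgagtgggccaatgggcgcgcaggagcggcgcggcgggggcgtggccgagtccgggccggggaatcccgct
Gbp2: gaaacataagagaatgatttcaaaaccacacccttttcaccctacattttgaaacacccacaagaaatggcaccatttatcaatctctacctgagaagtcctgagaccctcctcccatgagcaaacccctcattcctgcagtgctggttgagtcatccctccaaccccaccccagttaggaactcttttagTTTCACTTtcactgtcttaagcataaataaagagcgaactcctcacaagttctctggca

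H2-K1, H2-Q4 and Gbp2 share the same 8 letters, TTTCACTT, which is AANNGAAA read on the other strand, starting at -90, -153 and -59 from the transcript start. B2m holds AACTGAAA at -137, and Irf1 holds TTCCCCGAA, a match to the STAT dimer element, at -90. Each region shown holds 1 match, to AANNGAAA or to TTCNNNGAA, and none holds both motifs. Over windows of 300 bases, from 250 before to 50 after the start, AANNGAAA was found in 20 of the 29 genes higher in replicate 2 that have a window in the RefSeq table (69%). The share was 24.2% of all 27025 windows, 17.1% of the 9338 tested genes with a window and 16.2% of the 977 genes higher in replicate 1 with a window. TTCNNNGAA was found in 6 of the 29 (20.7%), against 8.47% of all windows, 6.82% of tested genes and 6.55% of genes higher in replicate 1. Gbp3, Gbp5 and Gbp7 hold 3 matches to AANNGAAA each, and Igtp, Irgm1, Irgm2, H2-T23, Stat2 and Xaf1 hold 2 each. The windows of Tap1, Psmb9, Irf7, Irf9, Oasl2, Tnfaip2 and Gm8909 hold neither motif. A match is a stretch of letters and not a measured binding site. Several windows come from related gene copies, so that they are not independent.

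Of 13065 genes that passed the filter on low counts, 424 (3.25%) were higher and 65 (0.498%) lower on day 49, 3.74% in all, than on the other days at an adjusted p under 0.05 (edgeR, 2 libraries against 16). The same comparison for each of the other 8 days, each against the remaining 16 libraries, called 1 gene (0.00765%) on days 43, 48 and 50 and 0 genes on the rest, while 313 to 1400 genes had an unadjusted p under 0.05, against 2449 on day 49. The comparisons share libraries, so these counts are side by side values. For each other day the remaining 16 include both day 49 libraries, while the day 49 comparison has neither among its 16. Day 49 replicate 1 was the lowest or highest of the 18 libraries in 5324 tested genes, which can widen the spread in those comparisons. How many genes the other days would call without it was not tested. The count for day 49 depends on which of its libraries is kept. It was 51, all higher, without replicate 1, and 2062 without replicate 2. Of the 424 genes higher on day 49, 373 were called in replicate 1 alone, 36 in replicate 2 alone, 6 in each and 9 in neither. A value averaged over the 2 libraries therefore hides which of them it comes from, and the values below are given for each.

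Replicate 2 against the 16 others had 44 genes higher (0.337%) and 0 lower at an adjusted p under 0.05. All 44 were above all 16 others, as were 4.25% of the tested genes. In replicate 1 the counts were 1247 higher (9.54%) and 815 lower (6.24%), 15.8% in all. In these fits a single library is assumed to vary like the 16 others. They were not run for any library of another day, so their counts have no like value from the other days beside them. The shares over all tested genes are the measure for the counts of called list members below. The difference between the 2 day 49 libraries was itself called for 530 genes (4.06%), 332 higher in replicate 1 (2.54%) and 198 higher in replicate 2 (1.52%). Of the 44 genes higher in replicate 2, 6 were also higher in replicate 1 (H2-K1, H2-Q4, H2-T23, Parp10, Tap1 and Tap2), 2 were lower there (B2m and Irgm1), and 36 were not called there. For 24 of these 36, replicate 2 exceeded replicate 1 in the fit of the difference. When each replicate was compared with the 8 libraries of its own replicate number, so that no comparison library was shared, 885 genes were higher in replicate 1 and 47 in replicate 2. Between them H2-K1, H2-Q4, H2-T23, Tap1 and Tap2 were in common. The lists were drawn from 13283 tested genes for replicate 1 and 13586 for replicate 2. Whether this overlap exceeds that of unrelated lists was not tested.

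**Figure D1:**
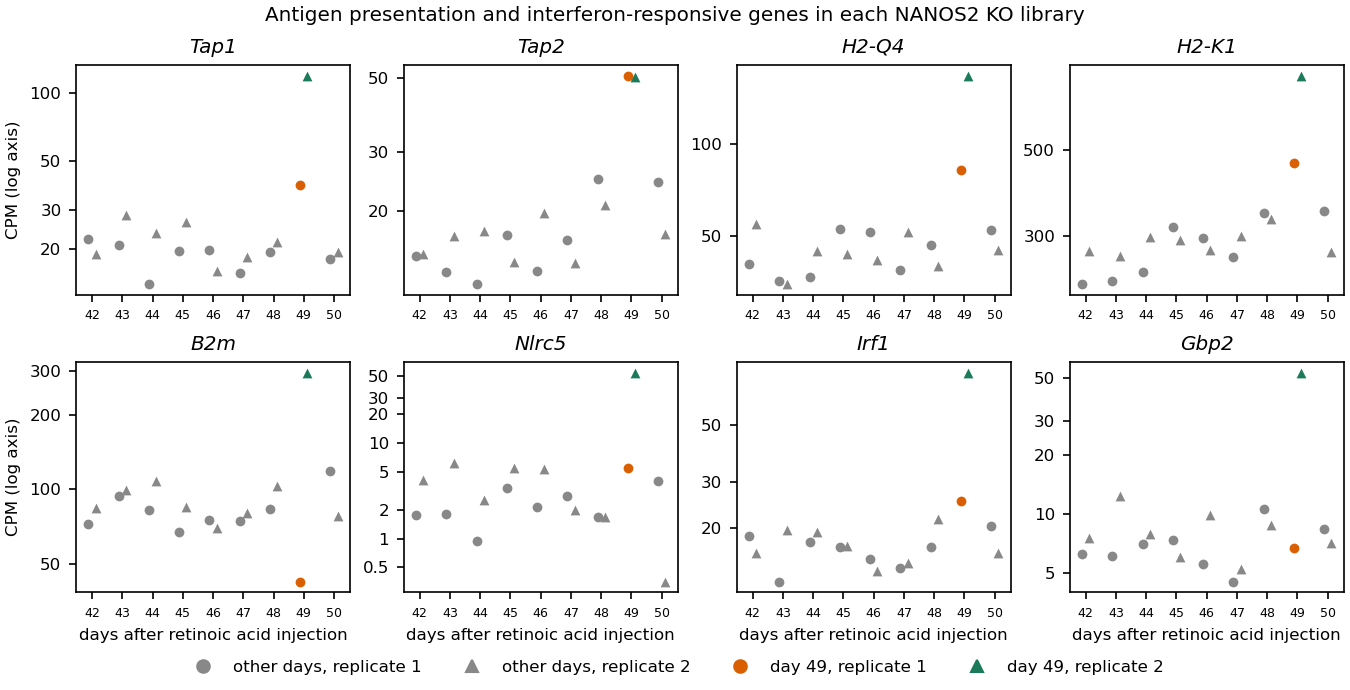
CPM (log axis) of 8 genes in each of the 18 NANOS2 KO libraries, by day after retinoic acid injection, with circles for replicate 1, triangles for replicate 2 and colour for day 49. Tap2 is level in the 2 day 49 libraries at 50.8 and 50.3 CPM, while B2m lies below all other days in replicate 1 and above them in replicate 2.

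Both subunits of the peptide transporter were called higher in each of the day 49 libraries. Tap2, one subunit of the transporter (chromosome 17, 34203527 to 34216321, plus strand, GENCODE M21 on GRCm38, protein-coding), was at 50.8 CPM in replicate 1 (84 counts, exact 95% counting interval 40.5 to 62.9) and 50.3 CPM in replicate 2 (137 counts, 42.2 to 59.5). The 16 other libraries ran from 12 to 24.9 CPM with a median of 16.6, which gives log2 fold changes of 1.60 (SE 0.27) and 1.58 (SE 0.24). The day 49 libraries were level with each other, and both stood above all 16 others, of which day 48 replicate 1 and day 50 replicate 1, at 24.9 and 24.5 CPM, were the closest. Tap1, the other subunit, was at 38.7 CPM in replicate 1 and 120 CPM in replicate 2, against 13.9 to 28.6 CPM (median 19.7), with log2 fold changes of 0.94 and 2.57. Replicate 2 thus held more Tap1 than replicate 1 at the same level of Tap2, and the difference between the libraries was called for Tap1. Counting intervals cover counting error only.

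Of the class I heavy chains, H2-K1, H2-Q4 and H2-T23 were called higher in each library, with higher levels in replicate 2. H2-Q4, a non-classical class I gene (chromosome 17, 35379617 to 35385290, plus strand, protein-coding), was at 82.2 CPM in replicate 1 and 167 CPM in replicate 2, against 34.8 to 54.7 CPM (median 44.2), with log2 fold changes of 0.88 (SE 0.20) and 1.9 (SE 0.16). H2-K1, a classical heavy chain, was at 465 and 779 CPM, against 225 to 349 CPM (median 285). H2-T23, which encodes Qa-1, a ligand of receptors on natural killer cells, was at 56.2 and 70.1 CPM, against 19.1 to 36.9 CPM (median 25.2). These 3 genes were above all 16 others in both libraries, as were 1.85% of the tested genes. Taken singly, replicate 1 was above all 16 in 20.7% of the tested genes and replicate 2 in 4.25%. H2-D1, the other classical chain, was above the others in replicate 2 alone, at 217 CPM against 59.3 to 198 CPM, and was not called in either library. H2-M3, which presents formylated peptides, was above all 16 in both libraries (26.0 and 27.5 CPM against 11.2 to 23.7 CPM). H2-Q1, H2-Q2, H2-Q6, H2-K2 and H2-T22 were called in replicate 2, at 11 to 33.4 CPM there. H2-Q10 and H2-T24 were not called in either library. Of the 20 heavy chain and B2m genes listed, 13 passed the filter, and 3 were called higher and 1 lower in replicate 1 and 9 higher in replicate 2. The median log2 fold change of the 13 was 0.77 in replicate 1 and 1.45 in replicate 2, beside medians of -0.04 and -0.01 over all tested genes. Reads of near-identical H2 copies may have been divided between them, since no source used here gives the counting step.

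The invariant partner of these chains went opposite ways. B2m (chromosome 2, 122147686 to 122153083, plus strand) was at 42.3 CPM in replicate 1 (70 counts, 33.0 to 53.5) and 295 CPM in replicate 2 (803 counts, 275 to 316), against 67.1 to 118 CPM (median 82.7). Replicate 1 was the lowest of the 18 libraries and replicate 2 the highest, with log2 fold changes of -1.03 (SE 0.27) and 1.77 (SE 0.17). In replicate 1, then, the heavy chains H2-K1, H2-Q4 and H2-T23 were above the other days while their partner was below. Over all tested genes, 20.7% were below all 16 others in replicate 1. The opposite extremes of B2m, below in replicate 1 and above in replicate 2, were found for 0.452%.

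The regulator of class I genes had the highest fold change of the genes called in replicate 2. Nlrc5, the transactivator of MHC class I promoters, was at 5.44 CPM in replicate 1 and 54.3 CPM in replicate 2, against 0.356 to 6.18 CPM (median 2.33), which is a log2 fold change of 4.29 (SE 0.36) in replicate 2. Replicate 1 lay inside the range of the other days. Ciita, the corresponding transactivator of class II, did not pass the filter. It had 26 counts in replicate 2 (9.55 CPM), 1 count in replicate 1 (0.604 CPM) and 1 to 12 counts in the others (0.304 to 3.09 CPM).

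Of the inducible proteasome subunits, Psmb8 was at 12.1 and 26.4 CPM in replicates 1 and 2, against 1.69 to 10.1 CPM, and Psmb9 at 13.3 and 43.7 CPM, against 2.50 to 13.6 CPM. Both were called in replicate 2 alone. Psmb10 was at 27.2 and 25.3 CPM, against 9.88 to 20.3 CPM, above the other days in both libraries and called in replicate 1. Tapasin (Tapbp), which bridges TAP and the heavy chain, was at 430 and 453 CPM against 289 to 400 CPM, above all 16 in both libraries and called only over the 2 together. The general chaperones of the endoplasmic reticulum did not share the pattern of replicate 2. Canx, calnexin, was at 345 CPM in replicate 1 and 195 CPM in replicate 2 against 189 to 242 CPM, and Calr, calreticulin, at 968 and 839 CPM against 722 to 890 CPM. Pdia3 was at 409 and 367 CPM against 247 to 407 CPM. The activator subunits Psme1 and Psme2 and the trimming enzyme Erap1 were not called in either library, nor was Tapbpl. All 14 peptide loading genes passed the filter, with 4 called higher in replicate 1 (Tap1, Tap2, Psmb10 and Canx) and 5 in replicate 2 (Tap1, Tap2, Psmb8, Psmb9 and Nlrc5). Their median log2 fold change was 0.53 in replicate 1 and 0.61 in replicate 2, beside -0.04 and -0.01 over all tested genes.

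**Figure D2:**
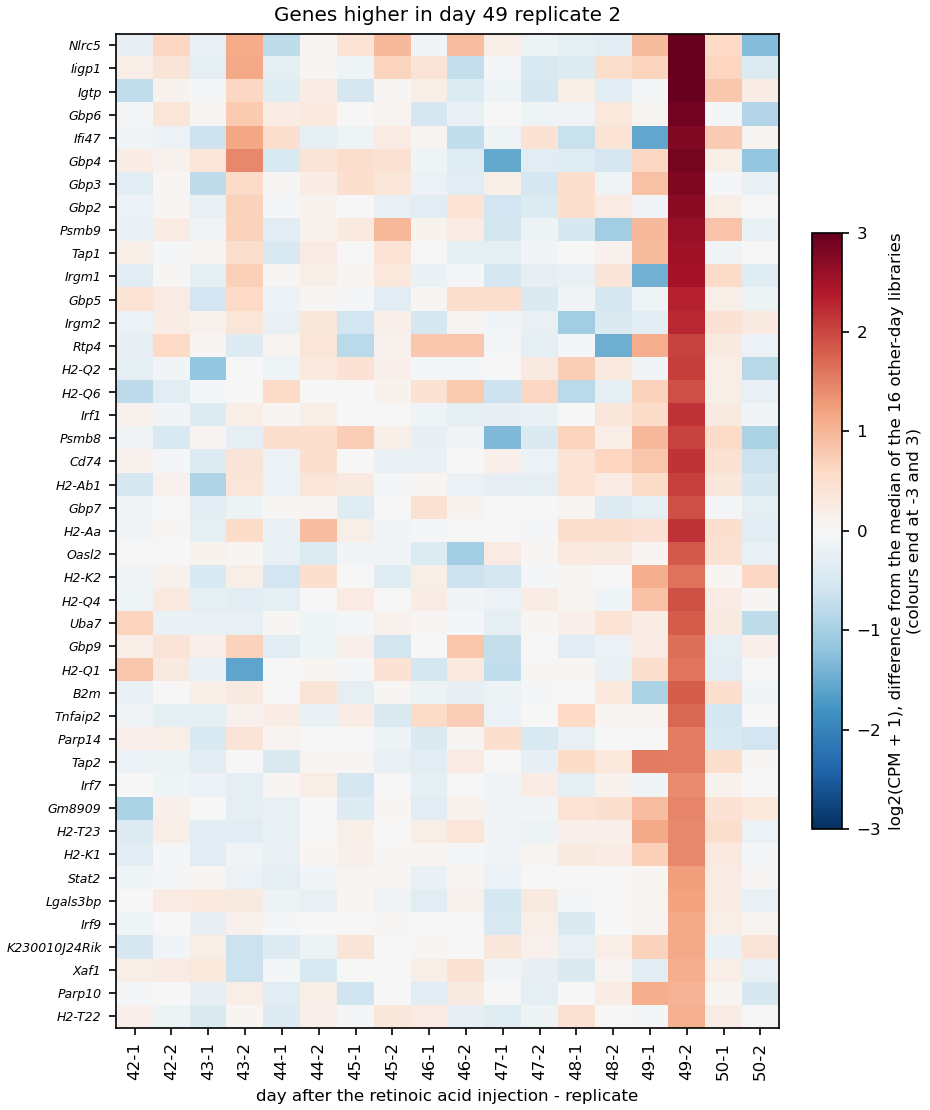
Genes higher in day 49 replicate 2 (43 of the 44, rows, by falling fold change) in each of the 18 libraries (columns, by day and replicate), as the difference of log2(CPM + 1) from the median of the 16 other-day libraries. The column of day 49 replicate 2 is high throughout, by the choice of rows, while day 49 replicate 1 is high for Tap2, H2-T23, Parp10 and H2-K2 and low for B2m, Irgm1 and Ifi47.

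The transcription factors of the interferon response were high in replicate 2. Irf1, which is induced by interferon gamma and drives class I and Gbp genes, was at 25.4 CPM in replicate 1 and 78.9 CPM in replicate 2, against 12.5 to 21.7 CPM (median 16.9), with log2 fold changes of 0.58 and 2.22. Stat2 was at 52.6 and 122 CPM against 41.2 to 60.3 CPM, and its partner Irf9 at 36.9 and 77.1 CPM against 24.7 to 40.2 CPM. Irf7, the amplifier of type I interferon, was at 7.86 and 24.2 CPM against 5.64 to 9.95 CPM. Replicate 1 was within the range of the other days for Stat2, Irf7 and Irf9 and above it for Irf1. Irf8, a factor of the macrophage lineage, was within the range in both libraries (96.7 and 110 CPM against 81.6 to 128 CPM).

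The effector genes with the highest fold changes were GTPases that act against pathogens inside cells. Iigp1 was at 11.5 CPM in replicate 1 and 94.4 CPM in replicate 2, against 3.80 to 16.3 CPM (median 6.89), a log2 fold change of 3.59 (SE 0.28) in replicate 2. Igtp was at 4.23 and 44.4 CPM against 2.22 to 8.38 CPM, and Irgm2 at 5.44 and 38.2 CPM against 2.96 to 10.1 CPM. Both lay inside the range of the other days in replicate 1. Irgm1, which controls the other members of the family, was at 4.23 CPM in replicate 1 (7 counts) and 79.7 CPM in replicate 2 (217 counts), against 9.0 to 22.5 CPM. It was the lowest of all 18 libraries in replicate 1 and the highest in replicate 2, like B2m. Ifi47 had 0 counts in replicate 1, which allows up to 1.81 CPM, and 52 counts (19.1 CPM) in replicate 2, against 1 to 12 counts in the others.

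Guanylate-binding proteins, a second family of such GTPases, gave 7 of the 44 genes. Gbp2 was at 6.65 and 52.9 CPM against 4.50 to 12.4 CPM (median 7.22), Gbp4 at 8.46 and 44.4 CPM against 1.12 to 15.7 CPM, and Gbp6 at 3.02 and 27.2 CPM against 1.07 to 5.62 CPM. Gbp7 was at 20.6 and 101 CPM against 19.2 to 35.2 CPM. Gbp5 and Gbp9 followed at 24.2 and 12.8 CPM in replicate 2. In replicate 1, Gbp3 was above the range of the other days (13.3 CPM against 3.65 to 10.7 CPM, with 54.0 CPM in replicate 2), and the other 6 lay inside it.

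Other interferon-responsive genes were split. Oasl2, of the oligoadenylate synthetase family, was at 15.7 and 56.5 CPM against 6.84 to 21.1 CPM, and Parp14, Xaf1, Lgals3bp and Rtp4 were also called in replicate 2. Uba7, the enzyme that activates the ubiquitin-like ISG15, was at 15.7 and 49.2 CPM against 7.47 to 21.8 CPM. Several listed genes were too low to compare. Ifit1 was at 0.604 and 1.47 CPM against 0 to 2.97 CPM, Mx1 at 0 and 0.734 CPM against 0 to 2.28 CPM, and Rsad2 at 0 and 0.734 CPM against 0 to 1.33 CPM. These levels are at or near those of 3 counts (1.81 CPM in replicate 1 and 1.1 CPM in replicate 2), so a difference there was not detectable at this depth. Isg15 had 15 counts in replicate 2, 3 in replicate 1 and at most 7 in the others, and did not pass the filter. Mx2, Trim25, Dhx58 and Herc6 were within the range of the other days in both libraries. Of the 72 interferon-stimulated genes listed, 71 were in the table and 50 passed the filter. Of these, 22 were called higher and 0 lower in replicate 2, and 1 higher (Oas2) and 3 lower (Irgm1, Samd9l and Eif2ak2) in replicate 1, with median log2 fold changes of 1.1 and -0.10. Their summed level was 1184 CPM in replicate 1, 2474 CPM in replicate 2 and 1233 to 1729 CPM in the others. In replicate 1 neither the higher nor the lower calls of this list exceeded the share over all tested genes.

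**Figure D3:**
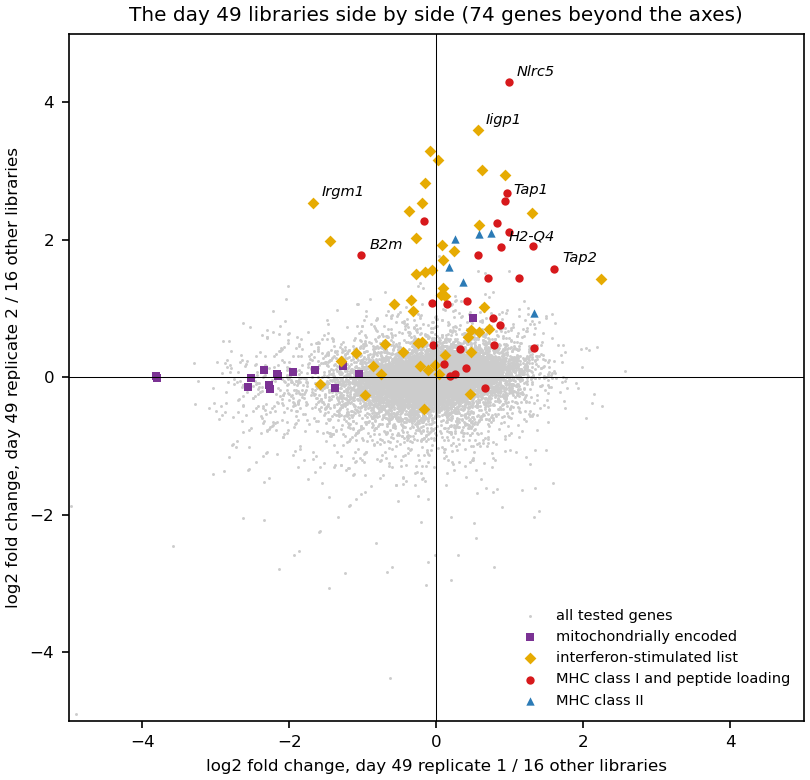
Log2 fold change of each tested gene in day 49 replicate 1 (x axis) and replicate 2 (y axis), each against the same 16 other libraries, so the axes share their comparison libraries, with 4 gene lists in colour and 74 genes beyond the axes. Interferon-stimulated and MHC genes spread upward along the axis of replicate 2, and mitochondrially encoded genes spread to the left along that of replicate 1.

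MHC class II genes, which display peptides from outside the cell, were high in replicate 2 as well. Cd74, the invariant chain, was at 105 CPM in replicate 1 and 268 CPM in replicate 2, against 37.0 to 92.5 CPM (median 58.5). H2-Aa was at 52.6 and 178 CPM against 30.6 to 74.7 CPM, and H2-Ab1 at 36.3 and 103 CPM against 12.5 to 32.5 CPM. Replicate 1 thus stood above the other days for Cd74 and H2-Ab1 and inside their range for H2-Aa, and none of the 3 was called there. H2-DMa, which edits class II peptides, was at 19.3 and 14.7 CPM against 3.56 to 10.5 CPM and was called in replicate 1. Of the 11 class II genes listed, 6 passed the filter, with 1 called higher in replicate 1, 3 in replicate 2, and medians of 0.47 and 1.81.

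At the head of the pathway, the receptor and kinase genes listed were not high. The only interferon genes listed, Ifng and Ifnb1, had 0 counts in all 18 libraries, which allows up to 1.81 and 1.1 CPM in the day 49 libraries. Their levels could therefore not be compared, and other interferon genes were not looked at. The receptor gene Ifngr1 was at 57.4 and 46.3 CPM against 51.5 to 75.8 CPM, and Ifngr2 at 107 and 133 CPM against 120 to 174 CPM. Ifnar1 and Jak1 were at 102 and 399 CPM in replicate 2, inside the range of the other days. The 10 listed genes summed to 791.9 CPM in replicate 1 and 907.5 CPM in replicate 2, against 909.2 to 1013 CPM. Of those tested, 5 were below all 16 others in replicate 1 and 1 in replicate 2. Over all tested genes 20.7% and 4.29% were. Of 8 receptor and kinase genes tested, 0 were called in replicate 2 and 1 was lower in replicate 1 (Il10rb). The interferon-induced chemokine Cxcl9 had 10 counts in replicate 2, 0 in replicate 1 and 0 to 4 in the others. Vcam1, an adhesion molecule of the acute inflammatory list, was below the other days in both libraries, at 392 and 412 CPM against 431 to 626 CPM. It was the single called gene among the 11 tested of that list, lower in replicate 1.

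The summed levels of immune cell markers in replicate 2 lay inside the range of the other days for each of the cell types listed. In a bulk sample, fewer cells of a type and less RNA per cell cannot be told apart. The 19 T and natural killer cell genes summed to 9.07 CPM in replicate 1 and 16.2 CPM in replicate 2, against 7.12 to 18.2 CPM, and only Cd4, which macrophages can also express, passed the filter. Of these 19 genes, 14 had 0 counts in replicate 1 and 4 in replicate 2, and the list held 15 and 44 counts. The T cell gene Cd3d had 0 counts in both day 49 libraries, Cd3e had 3 and 1, and Cd8a had 0 and 1. A count of 0 allows up to 1.81 CPM in replicate 1 and 1.1 CPM in replicate 2. The natural killer cell genes Klrb1c and Ncr1 had 0 counts in replicate 1 and 4 and 2 in replicate 2, against at most 3 and 1 in the others. The 9 B and plasma cell genes summed to 13.3 and 21.7 CPM against 16 to 32.9 CPM, from 22 and 59 counts. Of them, 5 had 0 counts in replicate 1 and 4 in replicate 2, with Ms4a1, Cd79a and Pax5 at 0 in both. The 20 macrophage genes summed to 1065 and 1167 CPM against 1020 to 1348 CPM. Of these, 0 were called in replicate 2, and 1 was called higher and 0 lower in replicate 1. Dendritic cell genes summed to 25.4 and 29.4 CPM against 19.2 to 37.8 CPM. All 8 neutrophil and all 4 mast cell genes had 0 counts in both day 49 libraries, and haemoglobin and other red cell genes were within range (68.9 and 85.5 CPM against 61.2 to 125 CPM).

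The genes high in replicate 2 could also be looked up in the sorted Sertoli libraries, which played no part in the choice. Scaled together with the knockout, 31 of the 44 genes had a median of at least 1 CPM over the 10 sorted libraries, and 16 exceeded 0.5 times the median of the 16 other knockout libraries. Medians above those of the knockout were found for 5 genes, Gm8909, K230010J24Rik, Nlrc5, Oasl2 and Tnfaip2. H2-K1 had a median of 181 CPM in sorted cells, and Irf1 one of 8.41 CPM, while Iigp1, Gbp4, Gbp9 and Rtp4 had medians of 0. These are levels away from day 49 and do not tell which cells carried the day 49 signal.

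By position, 15 of the 44 genes lie in the span of the H2 genes on chromosome 17 (33974659 to 37483552, GRCm38), which holds 101 of the 13065 tested genes, 23 of the 1247 higher in replicate 1 and 3 of the 815 lower there. The span was drawn from the first to the last H2 gene, so the called H2 genes on that chromosome lie in it by definition. Positions were known for 12443 of the tested genes. Tap1, Tap2, Psmb8 and Psmb9 are neighbours within the span. The remaining genes lie elsewhere, such as Irf1 on chromosome 11 and Parp10 on chromosome 15. Parp10, an ADP-ribosyltransferase, was the one gene outside that span called higher in both libraries, at 47.8 and 45.2 CPM against 14.1 to 26.6 CPM (median 21.8).

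Replicate 1 was a library apart in many more genes. Its TMM scaling factor was 0.961, against 0.989 to 1.02 on the other days. It had 16779 genes with a count, against 16862 to 19621. Whether a technical difference lies behind its deviation was not tested. Replicate 1 was the lowest or highest of the 18 libraries in 5324 of the tested genes, against 753 for replicate 2 and 534 to 2665 for the others. Its mean distance to the other libraries was 0.67, against 0.45 for replicate 2 and 0.42 to 0.53 for the others (log2 CPM). It held 1728743 counts, within the range of 1336742 to 4370138 of the other days, as did replicate 2 with 2767993. Genes higher in replicate 1 had a median transcript GC content of 55.3% and genes lower there 47.7%, beside 50.8% for all tested genes and 51.4% for the genes higher in replicate 2. The slope of the library's deviation on GC content was 0.31 log2 units per 10 points of GC in replicate 1 and 0.03 in replicate 2, and lay between -0.17 and 0.09 in the other libraries. Removal of the GC trend, an alternative added after seeing the data, was run on the 12465 genes with a GC value. Most of the genes called before in replicate 1 were called again, and their directions were not compared. The part of GC content in the individual differences of replicate 1 was not tested.

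**Figure D4:**
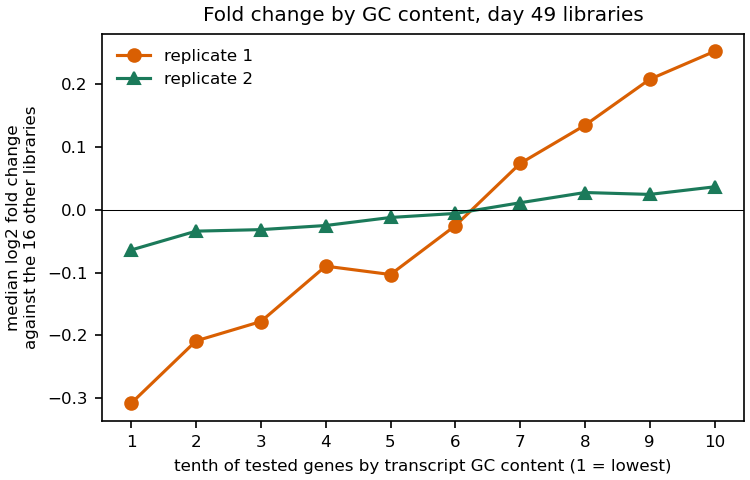
Median log2 fold change of the tested genes in each of 10 equal groups by transcript GC content (x axis, lowest to highest), for day 49 replicate 1 and replicate 2 against the 16 other libraries. Replicate 1 runs from -0.31 in the lowest group to 0.25 in the highest, and replicate 2 from -0.06 to 0.04.

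Mitochondrially encoded transcripts were low in replicate 1. They took 0.715% of its counts, against 2.83% in replicate 2 and 2.33 to 3.24% in the others, so replicate 2 was inside the range and replicate 1 far below it. Of the 15 genes, 14 were called lower in replicate 1 and 0 in replicate 2, with median log2 fold changes of -2.17 and 0.02. mt-Co1, a subunit of cytochrome c oxidase, was at 3690 CPM in replicate 1 and 12488 CPM in replicate 2 against 8985 to 14367 CPM. mt-Nd4l and mt-Atp8, subunits of complex I and of the ATP synthase, were at 4.84 CPM each in replicate 1 (8 counts each), against 38.8 to 106 CPM and 46.7 to 97.1 CPM. mt-Nd6, which is read from the opposite strand of the mitochondrial genome, was the single gene inside the range of the other days. Leaving these genes out changed the counts of calls little (2034 in replicate 1 and 44 in replicate 2).

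**Figure D5:**
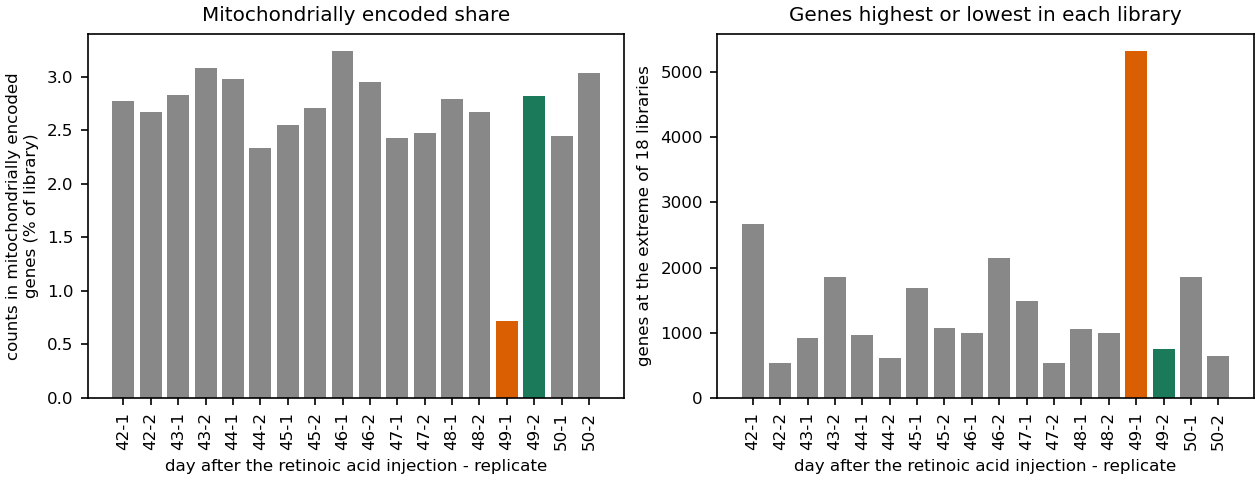
Share of counts in mitochondrially encoded genes (left, % of the library) and number of tested genes at which each library is the highest or lowest of 18 (right), by day and replicate, with day 49 in colour. Day 49 replicate 1 has a share of 0.715% and 5324 extreme genes, and replicate 2 lies among the other libraries in both.

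Among nuclear genes, collagens of the testis stroma were called higher in replicate 1 and not in replicate 2. Col1a2, a chain of type I collagen, was at 1545 CPM in replicate 1 and 390 CPM in replicate 2, against 315 to 710 CPM (median 374), a log2 fold change of 1.9 (SE 0.23) in replicate 1. Col1a1 was at 152 and 60.2 CPM against 49.7 to 124 CPM, Col3a1 at 482 and 170 CPM against 159 to 274 CPM, and Eln, elastin, at 93.1 and 15.1 CPM against 14.1 to 32.7 CPM. Dcn, a small proteoglycan of the same cells, ran the other way, at 225 and 379 CPM against 384 to 670 CPM. The stroma list thus had 3 genes higher and 1 lower among 10 tested in replicate 1 and 0 called in replicate 2. Ccdc85b, Jsrp1, Pagr1a and Gpatch3 were also high in replicate 1 alone, at 33.2, 43.5, 45.9 and 39.3 CPM against highest other-day values of 11, 19.8, 17.5 and 15.6 CPM. Low in replicate 1 alone were Mcts2, Eif3j1, Tmem126a and Cav2, each with 1.21 CPM, below the level of 3 counts, against lowest other-day values of 5.72, 4.58, 5.95 and 4.58 CPM.

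Among Sertoli and Leydig cell genes, calls were found in replicate 1 alone. Amh, the anti-Müllerian hormone, was at 143 CPM in replicate 1 and 101 CPM in replicate 2 against 43.3 to 100 CPM (median 66.5), highest in the 2 day 49 libraries, although replicate 2 exceeded the next library by little. Cldn11, a tight junction protein, was at 1402 and 958 CPM against 775 to 1113 CPM, Rhox8, an androgen-responsive homeobox gene, at 347 and 229 CPM against 151 to 230 CPM, and Inhbb, an inhibin and activin subunit, at 454 and 294 CPM against 228 to 315 CPM. Of 27 Sertoli genes tested, 7 were higher and 1 lower in replicate 1, where 9.54% and 6.24% of all tested genes were, and 0 called in replicate 2. Their median log2 fold changes were 0.08 and 0.11 in replicates 1 and 2, while Sox9, Wt1, Clu and Inha were inside the range in both. Prlr, the prolactin receptor, was at 109 and 173 CPM against 143 to 284 CPM, and Lhcgr, the receptor for luteinising hormone, at 95.5 and 142 CPM against 137 to 249 CPM. With Hsd3b6 and Scarb1 they were the 4 of 14 Leydig genes lower in replicate 1, with 0 higher, and 0 were called in replicate 2. The median log2 fold change of the 14 was -0.69 in replicate 1 and -0.41 in replicate 2, beside -0.04 and -0.01 over all tested genes.

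The genes with the lowest fold change over both day 49 libraries were lower in replicate 1 to a larger or similar degree. Gpr137b was at 1.81 CPM in replicate 1 and 6.61 CPM in replicate 2 against 8.01 to 14.6 CPM, and Wisp1, a matricellular protein, at 1.81 and 5.51 CPM against 5.62 to 12.9 CPM. Elovl6, a fatty acid elongase, was at 18.7 and 25.7 CPM against 30 to 57.6 CPM. Among the 12 lowest, Filip1l, Oser1, Gyg, Tubb6, Cdon, Ndufs5 and Hsd17b7 were likewise below all other days in both libraries, and Vnn1 in replicate 1 alone. None of the 12 was called in replicate 2 by itself, where the number of genes called lower was 0. Of all tested genes, 242 (1.85%) were above and 199 (1.52%) below all 16 others in both day 49 libraries. On the other days the count of both libraries of the day against the 16 remaining gave 36 to 185 above and 45 to 151 below. Those 16 include day 49 replicate 1, the highest of the 18 libraries in 2657 tested genes and the lowest in 2667. Where it is highest no other day can be above all, and where it is lowest none can be below, so these counts are not like for like.

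The other lists added few calls. Of the glucocorticoid-responsive genes, Ddit4 was higher in replicate 1 (276 CPM, with 144 CPM in replicate 2, against 91.6 to 139 CPM). Among clock genes, Cry2 and Dbp were higher and Clock and Npas2 lower in replicate 1. In that library Mcm3, a helicase subunit of replication, Myh11, a smooth muscle myosin, and the immediate early gene Ier2 were higher, and Myl9, Zfp36 and Hspb1 lower. In replicate 2 none of these lists held a called gene, and in neither library was there a call among the endothelial, germ cell, adipose, striated muscle, epididymis and duct, red cell or cholesterol synthesis genes, or among the kallikreins. The 7 kallikreins tested had median log2 fold changes of -4.90 and -2.28, and their summed level of 18.1 and 37.1 CPM lay inside the wide range of the other days, 16 to 413 CPM.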

How the data were processed

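Whole-testis polyadenylated RNA was sequenced on the Ion Proton, per the labels' protocols, in the 18 NANOS2 KO libraries, and the 10 sorted libraries were made alike. Bowtie, TopHat, Cufflinks and mm10 are named in the submitters' processing notes, without versions, and no source used here gives the counting step. The deposited tables hold raw counts for 43280 gene rows and, in tables named for FPKM, the authors' CPM, equal to count over library total within 0.0005. In the knockout counts, 2 columns share 1 day 42 header, and their replicate numbers were read from the CPM columns of identical values. Date-turned symbols (27 rows, 0.215 to 0.234% of counts) are not named.

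Low counts were removed by filterByExpr, libraries scaled by TMM, and models fitted with edgeR 4.0.16 (quasi-likelihood, R 4.3.3) in 1 fit of 2 groups (day 49 and 16 others) and 1 of 3 groups (each day 49 library and the 16). A gene was called at a Benjamini-Hochberg adjusted p under 0.05 over all 13065 tested. The biological coefficient of variation was 0.129. A gene above or below all 16 others was judged on log2 CPM with a prior count of 2. Totals of 1336742 to 4370138 counts make 3 counts equal to 0.687 to 2.28 CPM.

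The members, lists and tests were chosen with earlier results of these data known. Named were Tap2 and H2-Q4; the 12 highest and 12 lowest fold changes called on day 49 where the mean log2 CPM reached 3; the 6 highest and 6 lowest of each library where the other was inside the range; all class I and peptide loading genes; and up to 2 called genes a list in each direction, else the 2 most expressed. Other genes in the text were chosen after their values were seen, as was the choice of start regions shown. Unnamed, predicted, ribosomal and small RNA genes were left out by this rule, and some genes that it takes are not reported here. Older symbols were matched for 3 list genes, and positions, lengths and GC content came from GENCODE M21. Start regions came from the RefSeq table of GRCm38.p6. Alternatives were RLE and upper-quartile scaling, no filter, DESeq2 1.42.0, limma 3.58.1 on log2(CPM + 1) and log2(CPM + 0.1), a replicate block, single libraries or day 48 left out, a mean for each day, and GC trend removal.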

Additional observations from a re-analysis of the deposited data

How the results depend on the processing

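The count of genes called in replicate 2, 44 in the report, was 33 to 53 under the alternatives run for it, and 42 to 46 when single other-day libraries were left out. Of the 44, those still called higher numbered 29 with limma on log2(CPM + 0.1), 33 with log2(CPM + 1) and 40 against the 8 replicate 2 libraries alone. The replicate block and the mean for each day were not run for single libraries. For replicate 1, against the 8 replicate 1 libraries alone, 1343 genes were called, and leaving out single libraries gave 1977 to 2246. Over both day 49 libraries the count was 259 (230 higher, 29 lower) with the GC trend removed, and 51 to 2062 with single libraries left out, the ends being without day 49 replicate 1 and without replicate 2. Replicate 1 against replicate 2 gave 328 genes with no filter and 479 to 659 with single libraries left out. The share of calls that were higher was 86.7% over both libraries, 60.5% in replicate 1 and 62.6% between the replicates, but 57.0, 48.4 and 49.8% with limma on log2(CPM + 1) and 52.3, 46.8 and 45.0% with log2(CPM + 0.1). Reversals were found only for fold changes averaged over both day 49 libraries. Without day 49 replicate 2 and without replicate 1 they were -1.02 and 1.77 for B2m, -0.15 and 2.83 for Gbp2, -0.18 and 2.53 for Gbp5, -0.26 and 2.02 for Gbp7, -0.15 and 2.27 for H2-Q2, -5.57 and 3.05 for Ifi47, -0.076 and 3.29 for Igtp, -0.047 and 1.56 for Irf7, -1.67 and 2.54 for Irgm1, -0.36 and 2.42 for Irgm2, 1.92 and -0.086 for Col1a2, and 2.05 and -0.59 for Eln. With limma on log2(CPM + 0.1), Ifi47 was at -0.58. Each follows from which library remains or, for Ifi47, from its 0 counts. With the replicate number as a block 441 genes were called (382 higher, 59 lower). Deviations of same-numbered libraries had correlations of -0.27 to 0.13 over 36 pairs of days (median -0.00488). These values show no strong common deviation, and they cannot tell whether the numbers pair the samples. A single library for each fold change and 1728743 counts in replicate 1 limit what can be read from genes with few counts.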
